A study of Mus musculus with 6 samples.

Results

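The TRIM (tripartite motif) family was examined in irradiated and untreated SCC7 cells. SCC7 is an established line from a mouse squamous carcinoma, in common use for head and neck tumour models. The members are the rows of the deposited gene table whose symbol is Trim followed by a number and, in some, a letter from a to e. This gave 63 genes of the 17030 in the table. Cells that had received radiotherapy at 9 Gy (irradiated, n = 3) were set against cells that received none (control, n = 3). Both groups were grown in high-glucose medium with 10% serum, carry the time label day 0, and were profiled after removal of ribosomal RNA. How long after irradiation the cells were harvested is not given, and no label says whether the samples of a group were separate cultures, so p-values measure only the spread between these samples.

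TRIM proteins share a RING domain, which in most members makes them E3 ubiquitin ligases, followed by B-box and coiled-coil domains. The C-terminal domain differs between subfamilies and selects the target. Many members with a PRY-SPRY domain there are induced by interferon and act in the defence against viruses, by restricting the virus itself or by adjusting the signalling of RIG-I, cGAS, STING and NF-kB. Other members have different tasks, among them gene silencing on chromatin, muscle turnover and centrosome control.

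Values are FPKM, fragment numbers scaled for transcript length and library total. Read depth is unknown. The sum of FPKM was 652691 to 663489 in irradiated libraries and 693961 to 982553 in controls. Control 3 lay nearer to the irradiated libraries (correlations across genes 0.960 to 0.966) than to controls 1 and 2 (0.956 and 0.928). Among genes that define squamous epithelium, Krt5, Krt14, Krt6a, Cdh1, Epcam, Dsp and Perp stayed below 0.5 FPKM in all 6 libraries and Trp63 reached 1.10 FPKM in control 3 only. Keratins 8 and 18 were abundant (Krt8 371 to 393 FPKM in irradiated cells and 487 to 1361 FPKM in controls). Of the 11 squamous genes examined, 3 were tested, all 3 with a negative log2 fold change, and 1 was called. Vimentin measured 2443 to 2629 FPKM in irradiated cells and 2410 to 5293 FPKM in controls. It was not called (log2 fold change -0.67, limma adjusted p = 0.166). Of the 4 mesenchymal genes examined, 3 were tested and 0 called, with 2 positive changes and 1 negative. Krt18 was called lower, at 100.3 to 113 FPKM in irradiated cells and 212 to 528 FPKM in controls (log2 fold change -1.82, limma adjusted p = 0.0261). All 4 fibroblast genes examined were expressed, with a summed level of 79.5 to 96.2 FPKM in irradiated cells and 41.1 to 69.9 FPKM in controls. Of these, Col1a1 and Dcn were called higher (1.23 and 1.54, adjusted p = 0.00474 and 0.0086), and Pdgfra and Pdgfrb were not called. The 3 endothelial genes together measured 0.22 to 0.49 FPKM in irradiated cells and 0.36 to 0.62 FPKM in controls. The leukocyte genes Ptprc, Csf1r, Adgre1 and Itgam lay at 0 to 0.06 FPKM in all libraries. Cd68 measured 5.48, 5.63 and 4.01 FPKM in irradiated samples and 4.52, 3.59 and 2.11 FPKM in controls and was not called (log2 fold change 0.48, adjusted p = 0.183). Lyz2 measured 2.37, 3.53 and 3.36 FPKM in irradiated samples and 0.52, 0.30 and 0.78 FPKM in controls and was called higher (1.41, adjusted p = 0.00745). The part of these marker shifts in the TRIM results was not tested. In bulk RNA, fewer cells expressing a gene and less RNA per cell cannot be told apart.

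Irradiated cells had higher levels of most tested TRIM genes on a list of interferon-linked members, while most other tested members were not called. A gene was tested where at least 3 of the 6 samples reached 1 FPKM, which kept 36 of the 63 members. Of these, 14 were called higher (limma on log2(FPKM + 1), Benjamini-Hochberg adjusted p below 0.05) and 0 lower. In the same test 12.0% of all 11103 genes were called, 9.24% higher and 2.77% lower (1026 and 308 genes). After quantile normalization these were 645 and 601 genes, with 11 members higher and 1 lower, and after trimmed-mean scaling 675 and 476 genes, with 12 members higher and 0 lower. Of the 36 members, 4 (Trim5, Trim6, Trim30d and Trim34b) reached 1 FPKM in irradiated samples only, so that passing the filter already required a difference, and all 4 were called. Leaving these aside, 10 of 32 were called. The unadjusted p was below 0.05 for 21 of the 36. The count depends on single libraries: without irradiated sample 1, 2 or 3 it was 1, 1 and 5, where 0.516%, 0.599% and 0.911% of all genes were called. Only 32 members were tested in these fits, as the 4 named above fell below the filter. With the tested genes kept fixed at those of the full comparison, the count was 6, 7 and 11 of 36 (1.88%, 1.77% and 2.12% of all genes). Without control 1 it was 6 (1.63% of all genes), and without control 3 it was 25 (69.1% of all genes), 23 higher and 2 lower.

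The interferon-linked list held 18 of the members that are known to be induced by interferon or to act in innate immune signalling. Of these, 13 were tested and 12 called higher, all but Trim65, with a median log2 fold change of 1.83 (1, 1 and 5 called without irradiated sample 1, 2 or 3, and 6 without control 1), against 0.17 for all genes tested, of which 9.24% were called higher. Leaving out the 4 members that reached 1 FPKM in irradiated samples only, 8 of 9 were called. Of the 45 members outside that list, 23 were tested and Trim7 and Trim11 were called higher, with a median of 0.19. The list was chosen with earlier results of these data known, and it may leave out members that meet its definition. Trim8, a regulator of cytokine signalling, was not on it. The contrast of the list with the other members may partly reflect these choices. The irradiated and control values did not overlap for 23 of the 36 members (63.9%), 21 with irradiated cells above and 2 below, where 45.4% of all tested genes did not overlap. Added over the 18 interferon-linked members, the level was 164, 178 and 130 FPKM in irradiated samples 1 to 3, against 35.4, 36.1 and 50.9 FPKM in controls 1 to 3. The other 45 members together measured 444, 438 and 447 FPKM in irradiated samples and 475, 489 and 454 FPKM in controls. The interferon-linked share of all TRIM transcripts was thus 22.5% to 28.9% in irradiated cells and 6.87% to 10.1% in controls.

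**Figure D1:**
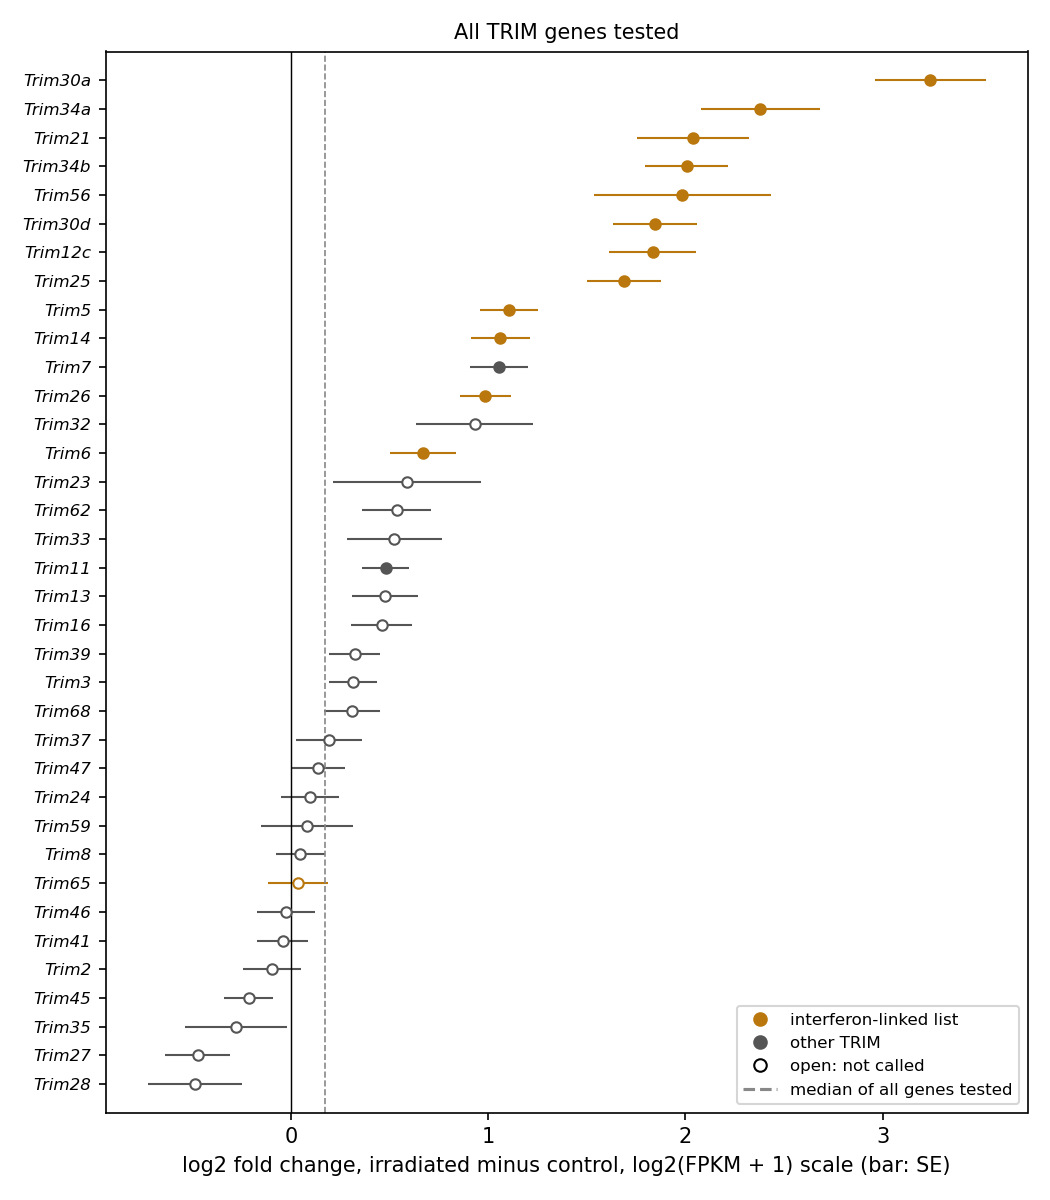
Log2 fold change (irradiated minus control, log2(FPKM + 1) scale, x axis) of the 36 TRIM genes tested, with bars for the standard error, filled points for called genes and orange for the interferon-linked list. The 12 called interferon-linked genes and Trim7 and Trim11 are filled, and Trim30a lies farthest right at 3.24.

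Trim30a showed the largest change of the tested members on the log2(FPKM + 1) scale. In mice its product limits NF-kB signalling by promoting the loss of TAB2 and TAB3. Trim30a (NCBI gene 20128, chromosome 7, 104409025 to 104465193, GRCm38.p6) measured 33.8, 40.3 and 26.4 FPKM in irradiated samples, against 2.15, 1.78 and 4.30 FPKM in controls. Every irradiated sample lay far above the highest control. The ratio of the means was 12.2, below those of Trim30d (24.8) and Trim34b (13.6), which have lower levels, and on the log2 scale the change was 3.24 (SE 0.28, limma adjusted p = 0.00202). The call held in all 22 alternative settings, with log2 fold changes of 2.68 to 3.64 and adjusted p up to 0.0344.

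Trim30d, a neighbouring copy, measured 2.47, 4.49 and 2.45 FPKM in irradiated samples and 0.08, 0.04 and 0.26 FPKM in controls, without overlap. The log2 fold change was 1.85 (limma, SE 0.21, adjusted p = 0.00522). Trim30c measured 0.92, 1.39 and 0.93 FPKM in irradiated samples, against 0, 0 and 0.03 FPKM in controls, and was not tested because only irradiated sample 2 reached 1 FPKM. Trim30b lay at 0 to 0.08 FPKM in irradiated samples and 0 to 0.02 FPKM in controls. Of the 50-base stretches of the longest Trim30a transcript, 6.53% also occur in Trim30d, and 6.99% of those of Trim30d occur in Trim30a. In irradiated samples Trim30a averaged 33.5 FPKM and Trim30d 3.14 FPKM. Read length and the handling of shared reads are not given. How much of the Trim30d level came from shared reads was not tested.

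These genes belong to a cluster of 10 TRIM genes on chromosome 7 that spans 289.1 kb (104218795 to 104507853, GRCm38.p6). Of the 10, 7 were tested and all 7 were called higher, among them the 4 that reached 1 FPKM in irradiated samples only. Leaving these 4 aside, 3 of 3 were called, where 9.24% of all tested genes were called higher. Of the 16 members on chromosome 7 as a whole, the 6 outside the cluster included 4 tested and 1 called, Trim21. No other tested gene lay inside the cluster. Within 1 Mb on either side there were 5 other tested genes, of which Usp17le was called higher (log2 fold change 1.19, adjusted p = 0.0438) and 4 were not called.

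Trim12c, a mouse relative of the primate retrovirus restriction factor TRIM5, measured 16.8, 17.8 and 12.5 FPKM in irradiated samples, against 2.94, 3.20 and 5.03 FPKM in controls. Its groups lay apart, by 1.83 on the log2 scale (SE 0.22, adjusted p = 0.00586). Trim34a measured 6.92, 8.17 and 5.25 FPKM in irradiated samples and 0.36, 0.05 and 1.25 FPKM in controls (log2 fold change 2.38, SE 0.30, adjusted p = 0.00695). Its copy Trim34b measured 3.88, 5.87 and 3.35 FPKM in irradiated samples and 0.18, 0.23 and 0.55 FPKM in controls (2.01, SE 0.21, adjusted p = 0.00398). Every irradiated sample of both genes was above every control. The Trim34a and Trim34b transcripts share much sequence: 59% of the 50-base stretches of Trim34b occur in Trim34a and 41.3% of those of Trim34a in Trim34b, so reads could have been assigned to either copy, and 23.5% of the exonic bases of Trim34a overlap Gm47248 on the opposite strand.

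Trim5 was lower in level, at 1.98, 1.35 and 1.57 FPKM in irradiated samples and 0.31, 0.27 and 0.09 FPKM in controls (log2 fold change 1.10, SE 0.15, adjusted p = 0.00793). Of its 50-base stretches, 38.1% occur in transcripts of other genes and 24.7% in Trim12c. For Trim12c these shares are 32.7%, and 24.5% in Trim5, so reads could have been assigned to either gene. In irradiated samples Trim12c averaged 15.7 FPKM and Trim5 1.63 FPKM. How much of the Trim5 level came from shared reads was not tested. Trim6, which in human cells makes free ubiquitin chains that activate the kinase IKKepsilon, measured 1.63, 1.28 and 1.07 FPKM in irradiated samples and 0.31, 0.35 and 0.75 FPKM in controls. Its rise was the smallest among the 7 tested genes of the cluster (0.67, SE 0.17, adjusted p = 0.0483). Trim12a was listed at 0.18, 0.22 and 0.15 FPKM in irradiated samples and 0.01, 0.05 and 0 FPKM in controls, below the filter.

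Within the cluster, the Trim30a call held without any 1 library. The calls of Trim30d and Trim34b did so only with the tested genes kept fixed. Both genes reached 1 FPKM in irradiated samples only and fell below the filter once an irradiated sample was left out. Their calls with fixed genes are thus no independent support. Trim12c lost its call without irradiated sample 1 or 2 (adjusted p = 0.0717 and 0.0719) unless the tested genes were kept fixed. The same held for Trim34a (0.0749 and 0.0791). Trim34a also lost its call without control 1, at 0.0599 and, with the tested genes kept fixed, 0.0602. With the tested genes kept fixed, Trim5 lost it without irradiated sample 1 (0.0505), and Trim6 without irradiated sample 1, 2 or 3 (0.193, 0.18 and 0.135). Trim6 also lost it without control 1 or 2 (0.173 and 0.11) and with the sample number as a block (0.105). Against control 3 alone the log2 fold change of Trim6 was 0.40. After quantile normalization Trim5 and Trim6 had log2 fold changes of 0.49 and 0.09 and were not called (adjusted p = 0.0742 and 0.638), and trimmed-mean scaling ended the Trim6 call (0.0586), as did no filter (0.0565), array weights (0.106) and a pseudocount of 0.1 (1.38, adjusted p = 0.0582). That pseudocount gave log2 fold changes of 3.90 for Trim30d, 3.90 for Trim34a, 3.47 for Trim34b and 2.48 for Trim5, all called, against 3.64 for Trim30a.

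**Figure D2:**
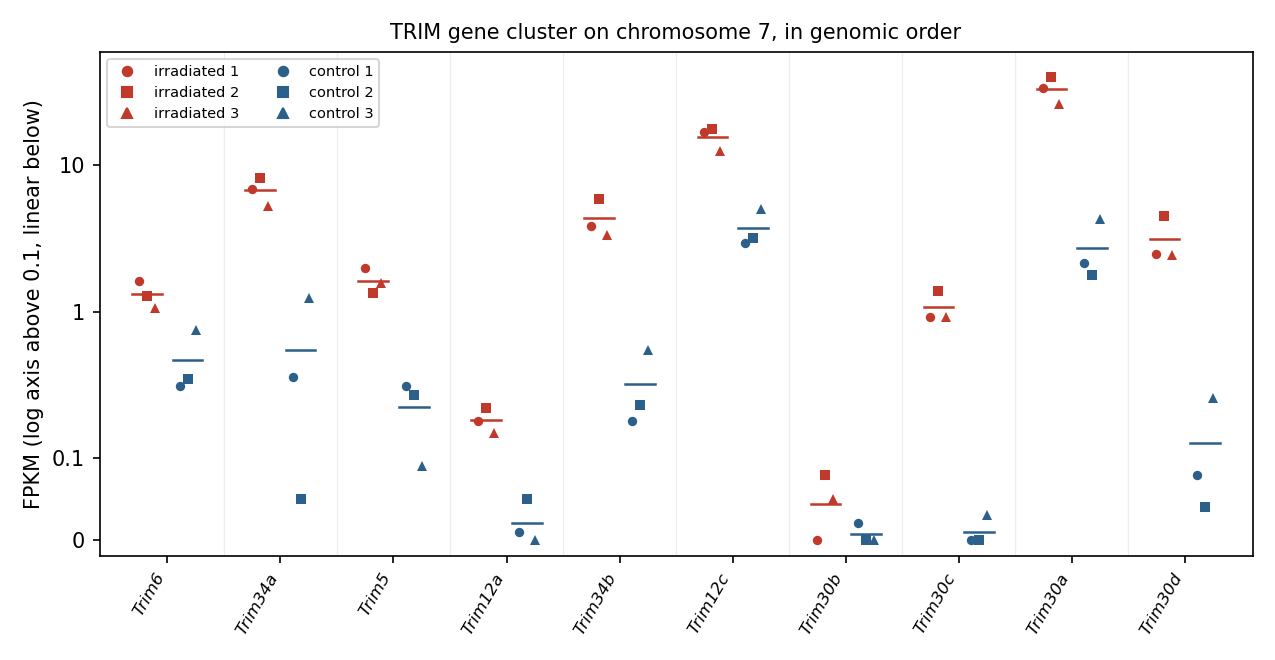
FPKM in each sample (y axis, logarithmic above 0.1 and linear below) of the 10 TRIM genes of the chromosome 7 cluster in genomic order, with irradiated samples in red, controls in blue and lines for the group means. For 9 of the 10 genes every irradiated sample lies above every control, among them Trim12a and Trim30c, which were not tested. The same holds for 31.8% of all tested genes and 19.2% of genes below the filter. Trim30b lies near 0 in both groups.

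Several ligases that act on RNA and DNA sensing rose as well. Trim25 attaches ubiquitin chains to RIG-I and so promotes its signalling. Trim25 (NCBI gene 217069, chromosome 11, 88999403 to 89020294) measured 29.3, 31.5 and 22.4 FPKM in irradiated samples, against 6.40, 8.16 and 9.10 FPKM in controls. All irradiated samples exceeded the controls, with a ratio of means of 3.51 (log2 fold change 1.69, SE 0.19, adjusted p = 0.00452). Trim21, a cytosolic receptor for antibody-coated virus, measured 9.68, 10.8 and 6.26 FPKM in irradiated samples and 0.90, 1.06 and 2.38 FPKM in controls (2.04, SE 0.29, adjusted p = 0.00995). Trim14 lacks the RING domain and serves as an adaptor of the mitochondrial protein MAVS. It measured 14.6, 14.3 and 12.3 FPKM in irradiated samples and 5.79, 5.32 and 7.10 FPKM in controls (1.06, SE 0.15, adjusted p = 0.01). Exons of Nans on the opposite strand overlap 31.3% of the exonic bases of Trim14, and Nans was not called (log2 fold change -0.09, adjusted p = 0.774).

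Trim26, which acts on the transcription factor IRF3, measured 26.8, 26.0 and 22.1 FPKM in irradiated samples and 11.5, 12.3 and 12.4 FPKM in controls (0.99, SE 0.13, adjusted p = 0.00744). The controls of Trim26 were close together and lay well below the irradiated samples. Trim56, which modifies the DNA-sensing proteins cGAS and STING, measured 11.4, 10.6 and 9.43 FPKM in irradiated samples and 1.22, 0.75 and 5.19 FPKM in controls (1.99, SE 0.45, adjusted p = 0.0402). Control 3 of Trim56 stood between the other controls and the irradiated samples, and against control 3 alone the log2 fold change was 0.88 (adjusted p = 0.000814), with a spread then taken from the irradiated samples. Trim65, which acts on the RNA sensor MDA5, measured 2.79, 2.09 and 2.39 FPKM in irradiated samples and 2.78, 2.07 and 2.18 FPKM in controls (0.04, SE 0.15, adjusted p = 0.873), and its groups overlapped. Trim38 and Trim69 were below the filter. Trim38 was listed at 0 to 0.05 FPKM, and Trim69 at 1.34, 1.70 and 0.99 FPKM in irradiated samples and 0.43, 0.40 and 0.32 FPKM in controls.

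Several of these calls rest on the full number of samples. Trim25 lost its call without irradiated sample 1 or 2 (adjusted p = 0.0612 and 0.0544) unless the tested genes were kept fixed. Trim21 lost it without irradiated sample 1 or 2 or control 1 (0.099, 0.102 and 0.0668). Trim14 and Trim26 lost it without irradiated sample 1 (0.119 and 0.103), 2 (0.122 and 0.106) or 3 (0.0763 and 0.0523) or control 1 (0.0693 and 0.0599). With the tested genes kept fixed, both kept the call without irradiated sample 3 (0.0495 and 0.0319). With the sample number as a block, Trim14 and Trim56 lost the call (0.0559 and 0.0708). Trim56 lost it without irradiated sample 1, 2 or 3 (0.194, 0.197 and 0.164), without control 1 or 2 (0.158 and 0.0815), with a pseudocount of 0.1 (0.0532) and with no filter (0.0571).

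**Figure D3:**
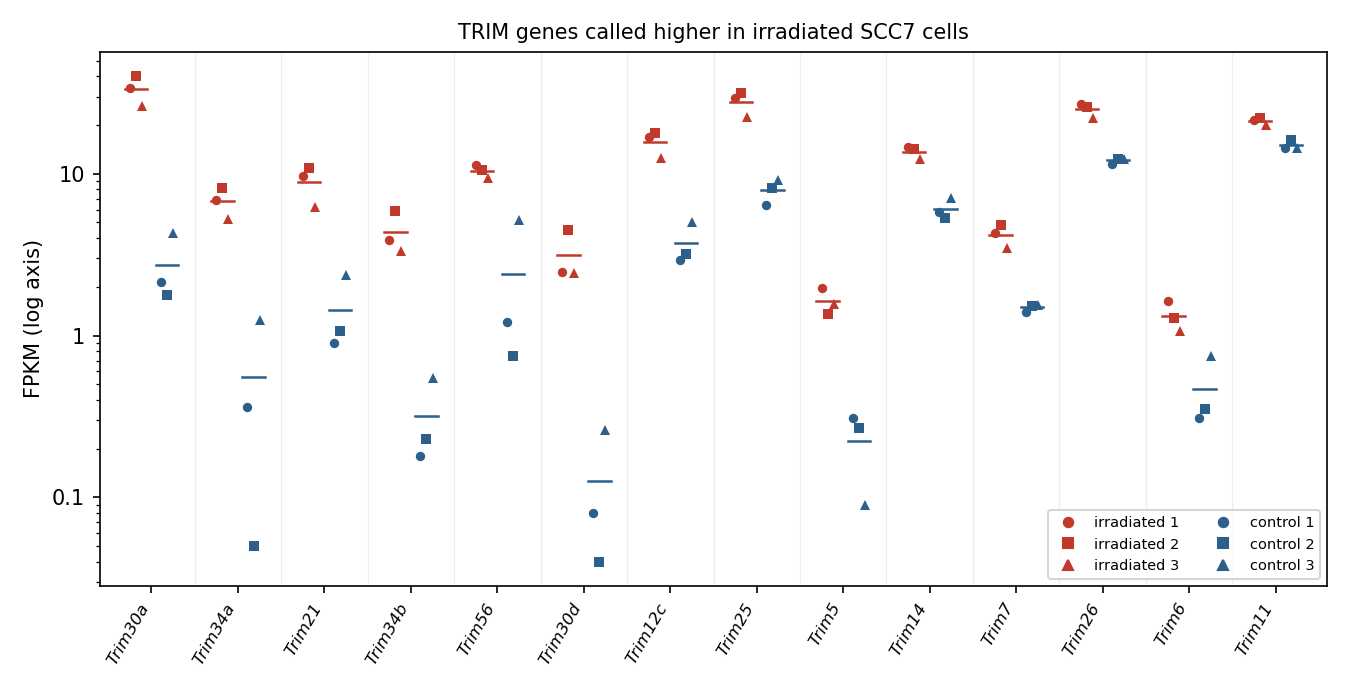
FPKM in each sample (log axis) of the 14 TRIM genes called higher, ordered by log2 fold change, with irradiated samples in red, controls in blue and lines for the group means. In all 14 genes the irradiated samples lie above the controls, and the widest gap on this axis is that of Trim30d, with a ratio of means of 24.8.

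Among the called genes the libraries of a group had a common order. Irradiated sample 3 was the lowest irradiated sample for 13 of the 14 (92.9%), against 57.7% of the 1026 genes called higher in all. Control 3 was the highest control for 12 of the 14 (85.7%), against 73.8% of those genes. The RNA sensors differed in this: control 3 was the highest control for RIG-I (Ddx58), with 64.2, 68.3 and 53.7 FPKM in irradiated samples and 7.85, 5.89 and 14.5 FPKM in controls. It was the lowest for Dhx58, with 50.7, 60.9 and 38.5 FPKM in irradiated samples and 13.5, 13.3 and 7.87 FPKM in controls.

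Outside the interferon-linked list, Trim7 and Trim11 were called. Trim7, whose product binds the glycogen primer glycogenin, measured 4.27, 4.84 and 3.49 FPKM in irradiated samples and 1.39, 1.53 and 1.55 FPKM in controls (log2 fold change 1.05, SE 0.15, adjusted p = 0.00915). Trim11, a ligase that promotes the clearance of misfolded proteins in human cells, measured 21.6, 22.2 and 20.1 FPKM in irradiated samples and 14.4, 16.1 and 14.5 FPKM in controls (0.48, SE 0.12, adjusted p = 0.0476). Groups of both genes lay apart, by a wider margin for Trim7. Trim7 lost its call without irradiated sample 1, 2 or 3 (adjusted p = 0.113, 0.114 and 0.0536) or control 1 (0.0638). With the tested genes kept fixed, Trim7 stayed called without irradiated sample 3 (0.0304). Quantile normalization left it at 0.61, still called. The Trim11 call was lost without irradiated sample 1, 2 or 3 (0.218, 0.218 and 0.171) or control 1 or 2 (0.17 and 0.0631), after quantile normalization (0.31, adjusted p = 0.144) or trimmed-mean scaling (0.29, adjusted p = 0.173), with no filter (0.0523) or a filter at 5 FPKM (0.0543), with array weights (0.0734) and with a pseudocount of 0.1 (0.0518). With the sample number as a block, neither Trim7 nor Trim11 was called (limma adjusted p = 0.0501 and 0.114). On the TPM scale, which had a median of 0.50 over all genes, Trim11 was at 0.83.

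By C-terminal domain, 13 of the 14 called genes carry a PRY-SPRY domain as their only domain after the coiled coil, and the exception is Trim56. Of 22 tested members with that domain 13 were called, and of 14 tested members without it 1 was called, where 12.0% of all tested genes were called. The 13 include the 4 genes that reached 1 FPKM in irradiated samples only, and without these 9 of 18 were called. The domains were assigned from general knowledge after the values had been seen, and the interferon-linked list accounts for 12 of the 22. Of the 10 PRY-SPRY members outside that list, 2 were called (median log2 fold change 0.32).

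None of the 3 chromatin readers with a PHD finger and bromodomain was called. Trim28, also known as KAP1, silences retroelements and many genes together with the methyltransferase SETDB1 and was the most abundant member. Trim28 (NCBI gene 21849, chromosome 7, 13024152 to 13031032) measured 101, 97.2 and 108 FPKM in irradiated samples, against 155, 191 and 100.03 FPKM in controls. Control 3 lay among the irradiated samples, and the difference did not pass (log2 fold change -0.49, SE 0.24, adjusted p = 0.176). Without control 3 it was -0.75 (adjusted p = 0.000712), a comparison in which 69.1% of the tested genes were called, and against control 3 alone it was 0.03 (adjusted p = 0.83). Trim24, a cofactor of retinoic acid receptors and a ligase of p53, measured 17, 18.8 and 17.6 FPKM in irradiated samples and 15.0, 15.3 and 19.8 FPKM in controls (0.10, SE 0.15, adjusted p = 0.636). Trim33, a regulator of SMAD4, measured 4.91, 4.70 and 3.98 FPKM in irradiated samples and 2.53, 1.94 and 4.43 FPKM in controls (0.52, SE 0.24, adjusted p = 0.154). Both had overlapping groups.

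Of the NHL-repeat proteins, Trim32, a ligase mutated in a human muscular dystrophy, measured 14.7, 15.2 and 15.2 FPKM in irradiated samples and 6.84, 4.68 and 12.3 FPKM in controls. The groups did not overlap, but the spread of the controls was wide and Trim32 was not called (0.93, SE 0.30, adjusted p = 0.0764). With array weights per group it was called (adjusted p = 0.0317), and likewise without control 3 (1.26, adjusted p = 0.000159) and against control 3 alone, where the log2 fold change was 0.27 (adjusted p = 0.0473) with a spread taken from the irradiated samples alone. Trim3, known from neurons, measured 24.0, 25.2 and 22.2 FPKM in irradiated samples and 20.1, 17.7 and 19.1 FPKM in controls (0.32, SE 0.12, adjusted p = 0.11). Trim2, its relative, measured 16.2, 15.3 and 14.3 FPKM in irradiated samples and 14.0, 16.7 and 18.7 FPKM in controls (-0.10, SE 0.15, adjusted p = 0.632). The Trim3 groups lay apart and those of Trim2 overlapped.

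In all, 13 members with a group mean of at least 10 FPKM were not called. Trim27, a nuclear and endosomal ligase, measured 29.3, 28.1 and 34.4 FPKM in irradiated samples and 45.9, 48.6 and 34.9 FPKM in controls (-0.47, SE 0.17, adjusted p = 0.0917). It was 1 of the 2 members whose irradiated samples all lay below the controls, by a narrow margin at control 3. The other was Trim45, at 1.64, 1.87 and 1.56 FPKM in irradiated samples and 2.31, 1.97 and 2.09 FPKM in controls (-0.22, SE 0.13, adjusted p = 0.235). Trim45 was called lower after quantile normalization (-0.67, adjusted p = 0.0294). Trim35 measured 40.6, 38.2 and 40.0 FPKM in irradiated samples and 40.0, 37.9 and 73.9 FPKM in controls, so that control 3 alone stood out. Against that control alone, with the spread again from the irradiated samples, Trim35 was at -0.88 (adjusted p = 0.000144), and without it the log2 fold change was 0.02.

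The remaining abundant members had ratios of means of at most 1.28. Trim59, a membrane-anchored ligase, measured 37.3, 31.5 and 36.7 FPKM in irradiated samples and 38.0, 22.9 and 41.6 FPKM in controls (0.08, SE 0.23). Trim8, a regulator of cytokine signalling, measured 26.5, 29.0 and 27.7 FPKM in irradiated samples and 28.8, 27.6 and 24.3 FPKM in controls (0.05, SE 0.12). Trim37, which restrains centrosome duplication, measured 10.4, 9.83 and 11.7 FPKM in irradiated samples and 8.93, 7.68 and 11.2 FPKM in controls (0.19, SE 0.17). These 3 had overlapping groups, as did Trim41 and Trim47. Trim39 measured 12.98, 12.4 and 11.4 FPKM in irradiated samples and 9.85, 8.78 and 10.2 FPKM in controls, without overlap, and was not called (0.32, SE 0.13, adjusted p = 0.116). Trim44 was listed at 0 to 0.02 FPKM in every library.

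**Figure D4:**
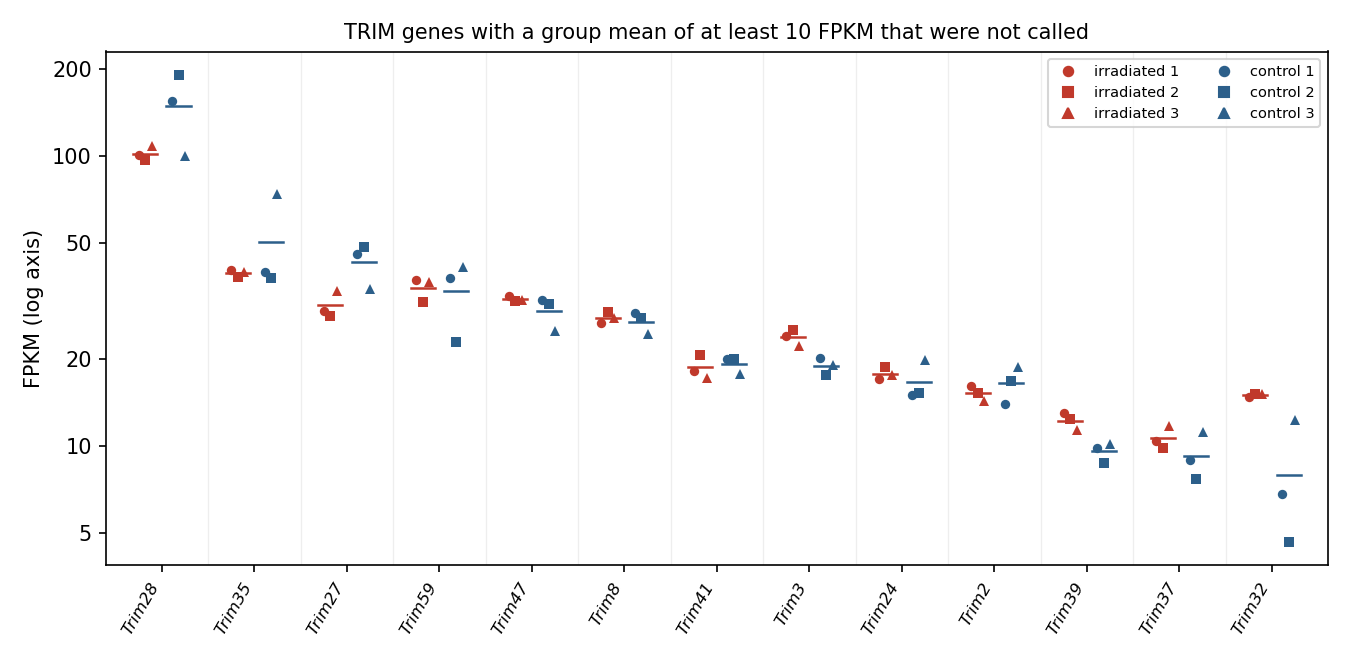
FPKM in each sample (log axis) of the 13 TRIM genes that were not called and had a group mean of at least 10 FPKM, with irradiated samples in red, controls in blue and lines for the group means. Control 3 (blue triangle) stands apart from controls 1 and 2 for Trim28, Trim35, Trim27 and Trim32.

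A total of 27 members were not tested, of which 21 stayed below 0.5 FPKM in all 6 samples. The 4 that reached 1 FPKM in some sample were Trim30c, Trim43c, Trim69 and Trim17. Irradiated samples lay above controls, without overlap, for 9 of the 27 and below for 0, against 19.2% above and 2.35% below among all 5927 genes not tested. The Trim43 genes, known from the early mouse embryo, were among them. Trim43c measured 1.18, 0.97 and 0.78 FPKM in irradiated samples and 0.11, 0.04 and 0 FPKM in controls. Trim43b measured 0.81, 0.65 and 0.76 FPKM in irradiated samples and 0.06, 0.03 and 0.30 FPKM in controls. Trim43a measured 0.26, 0.38 and 0.15 FPKM in irradiated samples and was listed at 0 in all controls. These copies share 42.3% to 48.8% of their 50-base stretches with transcripts of other genes, mostly with one another. Without a filter on low values, 8 of the 27 were called higher, in 7 cases with a log2 fold change below 1, where 6.49% of all 17015 genes were called higher.

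Promoter sequences were compared because 14 members rose together. RefSeq windows of GRCm38.p6, from 250 bases before to 50 bases after a gene start, were found for 48 of the 63 members (62 windows). They were searched on both strands for GAAA, any 2 bases and GAAA, the core of the interferon-stimulated response element that IRF and STAT factors bind. This pattern occurred in 7 of the 12 called members with a window. Of the 22 members tested and not called, 16 had a window and 1, Trim2, held the pattern, in only 1 of its windows. Of all tested genes with a window 3.69% held it, of all genes called higher 9.97%, and of all 32851 windows 3.44%. The 7 were Trim5, Trim12c, Trim21, Trim26, Trim30a, Trim30d and Trim34a. They include neighbouring copies with nearly the same stretch, so the 7 are not separate instances. The 12 include Trim5, Trim6, Trim30d and Trim34b, which reached 1 FPKM in irradiated samples only. In Trim21 and Trim26 a pair of overlapping matches was found. The windows of Trim6, Trim7, Trim25, Trim34b and Trim56 did not hold the pattern, and no window was found for Trim11 and Trim14. The core of the gamma-activated site, TTC, any 3 bases and GAA, occurred in 0 of the 12 called members, against 8.2% of all tested genes with a window. A match is a description of the sequence and not a bound site.

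The windows of the 3 called members with the largest log2 fold changes follow, 5′ to 3′ on the strand of the gene, with the matches in capitals.
Trim30a, chr7:104465144-104465443, minus strand: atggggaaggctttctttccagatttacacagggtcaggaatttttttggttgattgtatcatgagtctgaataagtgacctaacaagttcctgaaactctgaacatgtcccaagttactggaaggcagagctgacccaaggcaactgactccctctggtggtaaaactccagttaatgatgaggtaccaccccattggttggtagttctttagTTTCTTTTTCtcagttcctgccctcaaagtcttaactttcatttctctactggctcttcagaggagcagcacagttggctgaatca
Trim34a, chr7:104244207-104244506, plus strand: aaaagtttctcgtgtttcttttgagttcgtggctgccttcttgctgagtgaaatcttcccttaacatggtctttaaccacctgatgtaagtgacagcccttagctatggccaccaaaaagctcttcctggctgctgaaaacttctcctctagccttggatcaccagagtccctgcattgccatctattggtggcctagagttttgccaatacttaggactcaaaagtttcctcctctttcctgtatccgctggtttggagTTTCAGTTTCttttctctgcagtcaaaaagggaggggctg
Trim21, chr7:102565433-102565732, minus strand: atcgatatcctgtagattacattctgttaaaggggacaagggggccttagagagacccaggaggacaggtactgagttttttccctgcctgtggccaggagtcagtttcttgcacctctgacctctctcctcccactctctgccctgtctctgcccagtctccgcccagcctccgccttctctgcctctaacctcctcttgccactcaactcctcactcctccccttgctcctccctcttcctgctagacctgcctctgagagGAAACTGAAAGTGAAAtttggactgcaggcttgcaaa
The match begins 36 bases before the annotated start of Trim30a, and 10 bases after that of Trim34a. Trim30a has a further window, chr7:104446076-104446375, that is not printed. It holds the same match, which begins 2 bases after the start annotated there. In Trim21 the matches begin 13 and 19 bases after the start. They read TTTC first in Trim30a and Trim34a, which is the motif on the other strand, and GAAA first in Trim21.

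Neighbouring copies in the cluster carry nearly the same stretch, so their matches do not count as separate instances. The 30 bases around the match are shown for 5 of them, to compare the copies, with the match in capitals.
Trim30a, chr7:104465210-104465239, minus strand: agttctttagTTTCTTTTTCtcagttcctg
Trim30d, chr7:104507871-104507900, minus strand: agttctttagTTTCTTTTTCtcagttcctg
Trim5, chr7:104288136-104288165, minus strand: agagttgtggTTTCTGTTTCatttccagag
Trim12c, chr7:104353359-104353388, minus strand: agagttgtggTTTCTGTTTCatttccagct
Trim12a, chr7:104315466-104315495, minus strand: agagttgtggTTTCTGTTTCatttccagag
The Trim30a and Trim30d stretches are identical, and so are those of Trim5 and Trim12a. In irradiated samples, Trim12c averaged 15.7 ± 2.84 FPKM, Trim5 1.63 ± 0.320 FPKM and Trim12a 0.15 to 0.22 FPKM (SD, n = 3).

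Genes that work with TRIM ligases were examined by list, where 9.24% of all tested genes were called higher and 2.77% lower. Of the 3 tested family members with other names, Pml, the organiser of nuclear bodies also known as TRIM19, was called higher. Pml measured 41.8, 44.8 and 37.2 FPKM in irradiated samples and 19.6, 24.0 and 19.4 FPKM in controls (0.94, SE 0.14, adjusted p = 0.0124). Mid1 and Mid2, ligases on microtubules, were not called (0.29 and 0.44, adjusted p = 0.411 and 0.251). Of 19 ubiquitin and conjugating enzyme genes, 3 (15.8%) were called higher and 0 lower, with a median of 0.23, a share near the 12.0% called among all genes. They were the ubiquitin-like modifier Isg15 (5.04, SE 0.47, adjusted p = 0.00263), its activating enzyme Uba7 (1.79, SE 0.22, adjusted p = 0.00678) and its conjugating enzyme Ube2l6 (1.62, SE 0.17, adjusted p = 0.00398). Among conjugating enzyme genes that were not called, Ube2n, Ube2d2a and Ube2v2 had log2 fold changes of 0.10, 0.16 and 0.08. Others moved further in either direction: Ube2d1 0.83, Ube2d3 0.47 and Ube2v1 -0.71 (limma adjusted p = 0.065, 0.149 and 0.103).

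Of 19 nucleic acid sensing genes, 5 (26.3%) were called higher and 0 lower, against 9.24% higher among all genes, with a median of 0.50. These were the transcription factor Irf7 (5.36, adjusted p = 0.000758), the sensors Ifih1, which encodes MDA5 (3.55, adjusted p = 0.00179), Ddx58 (2.68, adjusted p = 0.00452) and Dhx58 (2.03, adjusted p = 0.00689), and Tab3 (0.65, adjusted p = 0.0313). Tab2 was not called (0.57, adjusted p = 0.13). Rnf135, the RIG-I ligase Riplet, measured 7.90, 6.29 and 5.09 FPKM in irradiated samples and 4.24, 4.4 and 3.98 FPKM in controls and was not called (0.50, SE 0.17, adjusted p = 0.0888). Sting1 missed the threshold narrowly (0.50, SE 0.13, adjusted p = 0.0500092). Of 10 partners of TRIM28, 2 were called, against 12.0% of all genes. Atf7ip (1.04, SE 0.21, adjusted p = 0.0319) and Cbx1 (0.62, SE 0.15, adjusted p = 0.0477) were higher, and Cbx5 and Setdb1 were not called (0.66 and 0.75, adjusted p = 0.0624 and 0.0689). The partners had a median of 0.61, against 0.17 for all genes tested.

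**Figure D5:**
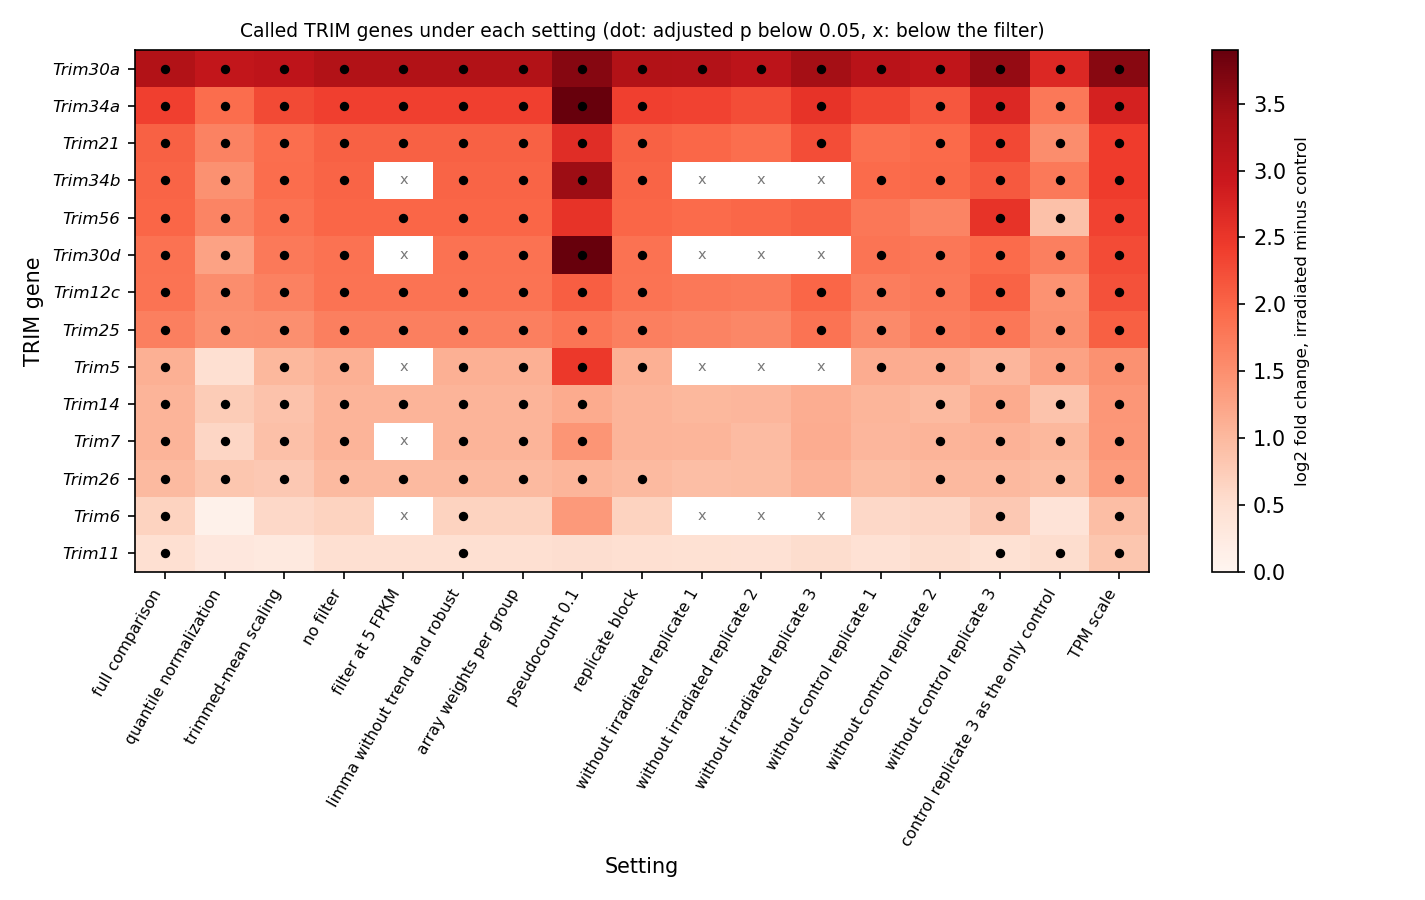
Log2 fold change (colour, irradiated minus control) of the 14 called TRIM genes (y axis) under the full comparison and 16 alternative settings (x axis), with a dot where the adjusted p was below 0.05 and an x where the gene fell below the filter. Trim30a carries a dot in every column, while Trim6 and Trim11 carry few.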

How the data were processed

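RNA-seq values of 6 SCC7 samples were used, 3 irradiated at 9 Gy and 3 untreated, grouped by their labels. The authors deposited FPKM values, per the file headers, with 2 decimals. HISAT and the build GRCm38.p6 are listed in the submitters' processing notes. Counting tool, annotation and strand setting were not given in the sources used here. FPKM depends on the assigned transcript length and on the library total. The depth is unknown, so no counting intervals are given. Of 17030 gene IDs, 16976 matched the RefSeq annotation of that build, which gave the coordinates.

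The 11103 genes that reached 1 FPKM in 3 or more samples were tested. The linear model of limma 3.58.1 (R 4.3.3) was fitted to log2(FPKM + 1), with trend and robust options, 2 groups and no covariate, two-sided, and Benjamini-Hochberg adjustment over all genes tested. Fold changes on this scale understate those of low genes, and equal variance in both groups was assumed although the median SD was 0.08 among irradiated samples and 0.30 among controls. Tested on simulated data for this comparison, the procedure recovered 46% of 100 genes changed 2-fold and 77.8% of 99 changed 4-fold. It called 4 unchanged genes, with 10994 genes tested in all, the changed ones included. Whether these values hold where the spread differs between the groups, as it does here, was not tested. Shared sequence was measured as 50-base stretches of the longest GENCODE M21 transcript found in transcripts of other genes, and exon overlaps came from the same release.

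Named members are all called ones, the interferon-linked members and 11 others set by rule, with further members named for a high level, a large change or non-overlapping groups. Of the other lists, the 3 genes with the smallest p and Pml are named, and others were chosen once their values had been seen. The result of a further marker gene is not reported here. The members and lists were chosen with earlier results of these data known. Alternatives were quantile normalization, trimmed-mean scaling, no filter or one at 5 FPKM, array weights per group, the sample number as a block, a pseudocount of 0.1, no trend or robust option, control 3 as the only control and omission of each sample. A TPM scale and omission with the tested genes fixed were added after seeing the data.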

Additional observations from a re-analysis of the deposited data

How the results depend on the processing

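The 14 calls among TRIM members became 8 with the filter at 5 FPKM, where 23 members were tested. Leaving out 1 sample gave 1 to 25 calls, with 1 to 12 of them interferon-linked, and 6 to 25 (6 to 12 interferon-linked) with the tested genes kept fixed. The highest counts came without control 3. Calls among all genes were 727 with that filter, 4093 against control 3 alone, 56 to 7638 without 1 sample and 181 to 7669 with fixed genes. The 11 calls in the 4 other lists became 25 against control 3 alone, 3 to 39 without 1 sample and 6 to 39 with fixed genes. The remaining alternatives kept these counts within 1.5 times, apart from the block. With the sample number as a block, 9 TRIM members and 300 genes were called. Same-numbered samples did not deviate together (correlations -0.11, 0.02 and -0.16 for numbers 1 to 3). Samples of unlike number had correlations from -0.17 to 0.26. With 3 samples per group these values cannot exclude that same-numbered samples were paired. The cause of these shifts was not tested.

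Over all genes the median log2 fold change was 0.17, and -0.02 after quantile normalization, -0.01 after trimmed-mean scaling and 0.50 on the TPM scale. The calls among all genes were 1026 higher and 308 lower, and 645 and 601, 675 and 476, and 1172 and 128 under these scalings. Members called higher were 11, 12 and 15, and lower 1, 0 and 0. Members with changes near 0 took the opposite sign in some settings. After quantile normalization Trim68, Trim65, Trim8, Trim37 and Trim24 measured -0.14, -0.41, -0.013, -0.12 and -0.10. After trimmed-mean scaling Trim65, Trim47, Trim8, Trim24 and Trim59 measured -0.11, -0.059, -0.15, -0.094 and -0.12. On the TPM scale Trim2, Trim41, Trim35, Trim46 and Trim45 measured 0.24, 0.30, 0.069, 0.27 and 0.015. Against control 3 alone Trim23, Trim28, Trim37, Trim41, Trim24 and Trim59 measured -0.24, 0.028, -0.072, 0.064, -0.15 and -0.24. Without 1 sample, Trim65 ranged over -0.041 to 0.13, Trim46 over -0.13 to 0.052, Trim41 over -0.11 to 0.011, Trim59 over -0.18 to 0.24, Trim8 over -0.022 to 0.096 and Trim35 over -0.45 to 0.023. None of the values of opposite sign was called. Of 767 values of single members under alternatives, 616 kept direction and side of the threshold, 83 lost the call, 31 gained one and 37 changed sign. The depth is unknown, so the precision of members near 1 FPKM could not be computed.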
